A study of Mus musculus with 30 samples.

Results

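The genes described here are the 4 mouse receptors for the Fc part of IgG and the signalling chain that the activating ones share: Fcgr1, Fcgr3, Fcgr4, Fcer1g and Fcgr2b. Of the 17097 genes with a probe set of a single gene symbol these were 5, and all 5 members had at least 1 probe set (9 in all). Each gene is represented by its brightest probe set, judged by the mean of the 30 arrays. The arrays held RNA of CD4+ T cells and of CD11c+ cells, isolated with beads against this dendritic cell marker, from DO11.10 RAG2-/- BALB/c mice aged 8 to 10 weeks. All T cells of these mice carry the same transgenic receptor, which recognises a peptide of ovalbumin (OVA), and the loss of RAG2, which all groups shared, leaves the animals without B cells, the lymphocytes that make IgG. Each cell type had 5 groups of 3 arrays: unimmunised, primed, control IgG, abatacept and tolerised. Priming was by 100 micrograms of OVA per mouse in complete Freund's adjuvant (CFA). The control IgG and abatacept groups were primed in the same way and received 10 mg/kg of the respective protein, whereas tolerised animals drank water that held OVA. Cells of the primed, control IgG and abatacept groups were taken on day 10 after immunisation, and no such day is given for the unimmunised and tolerised groups. CD11c+ cells came from pooled spleen and lymph nodes in every group. CD4+ T cells came from axillary nodes in the 3 primed groups, mesenteric nodes in the tolerised group and pooled spleen and lymph nodes in the unimmunised group, and between such groups the tissue cannot be told apart from the treatment. Whether the 3 arrays of a group stand for 3 different mice is not stated, so the p-values describe the spread of these samples alone, and part of it may be technical.

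Fc gamma receptors let myeloid cells sense IgG bound to antigen. The activating receptors lack a signalling motif of their own and pair with the common gamma chain, which carries an ITAM, a motif that recruits the kinase Syk, while Fcgr2b carries an inhibitory ITIM that recruits the phosphatase SHIP, so the balance of both arms sets how a cell answers to immune complexes. Both injected proteins carry an Fc part: control IgG is an antibody, and abatacept joins the outer part of CTLA-4 to a modified human IgG Fc and blocks costimulation by binding CD80 and CD86.

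The arrays of a group correlated at 0.983 to 0.995 over all probe sets, and array medians lay between 4.4555 and 4.544 on the log2 scale. Cd4 averaged between 9.44 and 10.59 in the 5 CD4+ groups, and Itgax, which encodes CD11c, between 9.62 and 10.25 in the 5 CD11c+ groups. The sex of the animals is not in the labels, and transcripts of the sex chromosomes differed from group to group. In CD11c+ cells the Y-linked gene Eif2s3y averaged 8.58 in primed arrays, read 8.76, 5.92 and 8.20 on the control IgG arrays, and averaged 2.53 to 2.62 in the unimmunised, abatacept and tolerised groups. Amy1, a salivary amylase gene, was above 7 on 5 CD11c+ arrays, replicates 2 and 3 of control IgG and 1 array in each of the unimmunised, abatacept and tolerised groups.

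Fcgr2b, Fcgr4 and Fcgr3 are consecutive protein-coding genes on chromosome 1, Fcer1g lies elsewhere on chromosome 1, and Fcgr1 lies on chromosome 3. The 250 bases before each start (RefSeq, GRCm38.p6, 5′ to 3′ on the gene's strand) are printed for the receptors, because Fcgr2b went against its neighbours in CD11c+ cells. Capitals mark matches, on either strand, to TTCNNNGAA, the letters of the interferon-gamma activated site (GAS), and to GAGGAAG, a core of sites of the myeloid factor PU.1, which was chosen after these sequences had been read. No 2 matches overlapped.
Fcgr1 (chr3:96293970-96294219, minus strand): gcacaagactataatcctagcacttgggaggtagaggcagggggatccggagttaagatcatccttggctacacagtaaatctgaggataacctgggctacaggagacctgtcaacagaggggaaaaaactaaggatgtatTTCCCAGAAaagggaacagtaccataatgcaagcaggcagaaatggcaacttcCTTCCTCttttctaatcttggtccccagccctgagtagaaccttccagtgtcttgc
Fcgr3 (chr1:171059404-171059653, minus strand): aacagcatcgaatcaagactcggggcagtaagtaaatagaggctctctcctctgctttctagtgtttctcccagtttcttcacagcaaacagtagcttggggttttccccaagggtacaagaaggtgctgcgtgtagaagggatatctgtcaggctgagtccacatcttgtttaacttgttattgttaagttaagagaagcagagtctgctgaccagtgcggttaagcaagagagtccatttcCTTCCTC
Fcgr4 (chr1:171018676-171018925, plus strand): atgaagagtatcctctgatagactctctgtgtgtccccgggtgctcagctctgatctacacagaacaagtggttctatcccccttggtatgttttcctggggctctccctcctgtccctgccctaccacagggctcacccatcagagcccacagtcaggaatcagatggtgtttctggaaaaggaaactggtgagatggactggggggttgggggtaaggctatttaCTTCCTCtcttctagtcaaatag
Fcgr2b (chr1:170976072-170976321, minus strand): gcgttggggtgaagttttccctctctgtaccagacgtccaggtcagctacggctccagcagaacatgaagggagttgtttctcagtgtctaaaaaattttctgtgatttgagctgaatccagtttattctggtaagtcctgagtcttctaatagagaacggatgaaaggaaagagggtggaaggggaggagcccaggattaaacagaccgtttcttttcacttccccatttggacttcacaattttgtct
Fcgr1 held 1 GAS match, TTCCCAGAA, which begins 109 bases before the start. Such letters were in 7.18% of the windows of the same length of 27025 genes. Fcgr1, Fcgr3 and Fcgr4 each held 1 GAGGAAG match, all on the opposite strand (read as CTTCCTC), against 10.4% of all windows. Neither set of letters was in the windows of Fcgr2b and Fcer1g, which says only that they are not in these 250 bases. The table lists 2 starts for Fcgr3, and 1 of them was used.

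In CD11c+ cells the activating receptors and the gamma chain were highest in unimmunised and abatacept-treated mice and lower in primed, control IgG and tolerised mice, and the inhibitory receptor Fcgr2b had the opposite order. Log2 levels are given below for each array and then as mean ± SD of 3 arrays, and they are compared between groups for 1 gene at a time, since levels of different probe sets are not comparable. Fcgr1 encodes CD64, the high-affinity receptor. Its levels on the 3 arrays were 10.04, 9.84 and 10.02 in unimmunised, 8.73, 8.68 and 8.47 in primed, 9.14, 9.49 and 8.85 in control IgG, 10.06, 10.01 and 10.00 in abatacept and 8.21, 8.02 and 8.89 in tolerised mice. The unimmunised and abatacept arrays overlapped each other and lay above all 9 other arrays, and the tolerised arrays overlapped both the primed and the control IgG arrays. From the highest, the group means were 10.02 ± 0.03, 9.96 ± 0.11, 9.16 ± 0.32, 8.63 ± 0.14 and 8.37 ± 0.46 for abatacept, unimmunised, control IgG, primed and tolerised (SD, n = 3).

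Fcgr3 encodes CD16, a low-affinity activating receptor. It read 10.13, 10.11 and 10.11 in unimmunised, 9.52, 9.36 and 9.22 in primed, 9.49, 9.77 and 9.37 in control IgG, 10.31, 10.25 and 10.21 in abatacept and 9.16, 9.25 and 9.80 in tolerised mice. The abatacept arrays were the highest, the unimmunised arrays came next without overlap, and the other 3 groups overlapped. Fcgr4 encodes an activating receptor for IgG2a and IgG2b. It read 10.13, 9.93 and 10.16 in unimmunised, 9.55, 9.31 and 9.11 in primed, 9.67, 9.92 and 9.49 in control IgG, 10.17, 10.33 and 10.31 in abatacept and 9.60, 9.46 and 10.05 in tolerised mice. Again the abatacept arrays were highest, but tolerised replicate 3 lay among the unimmunised arrays.

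Fcer1g encodes the gamma chain itself. It read 10.70, 10.74 and 10.70 in unimmunised, 10.27, 10.25 and 10.17 in primed, 10.37, 10.57 and 10.18 in control IgG, 10.86, 10.89 and 10.74 in abatacept and 10.11, 10.05 and 10.27 in tolerised mice, so that the unimmunised and abatacept arrays lay above the rest. Fcgr2b read 7.23, 7.10 and 7.16 in unimmunised, 8.62, 8.50 and 8.51 in primed, 8.73, 8.08 and 8.78 in control IgG, 7.21, 7.48 and 7.54 in abatacept and 8.88, 8.91 and 9.36 in tolerised mice. For this inhibitory receptor the unimmunised and abatacept arrays were the 6 lowest, and the tolerised arrays were the highest. On control IgG replicate 2, the array of that group with the least Eif2s3y, Fcgr1, Fcgr3, Fcgr4 and Fcer1g had their highest and Fcgr2b its lowest value of the group. What this coincidence has to do with the receptor levels was not tested.

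**Figure D1:**
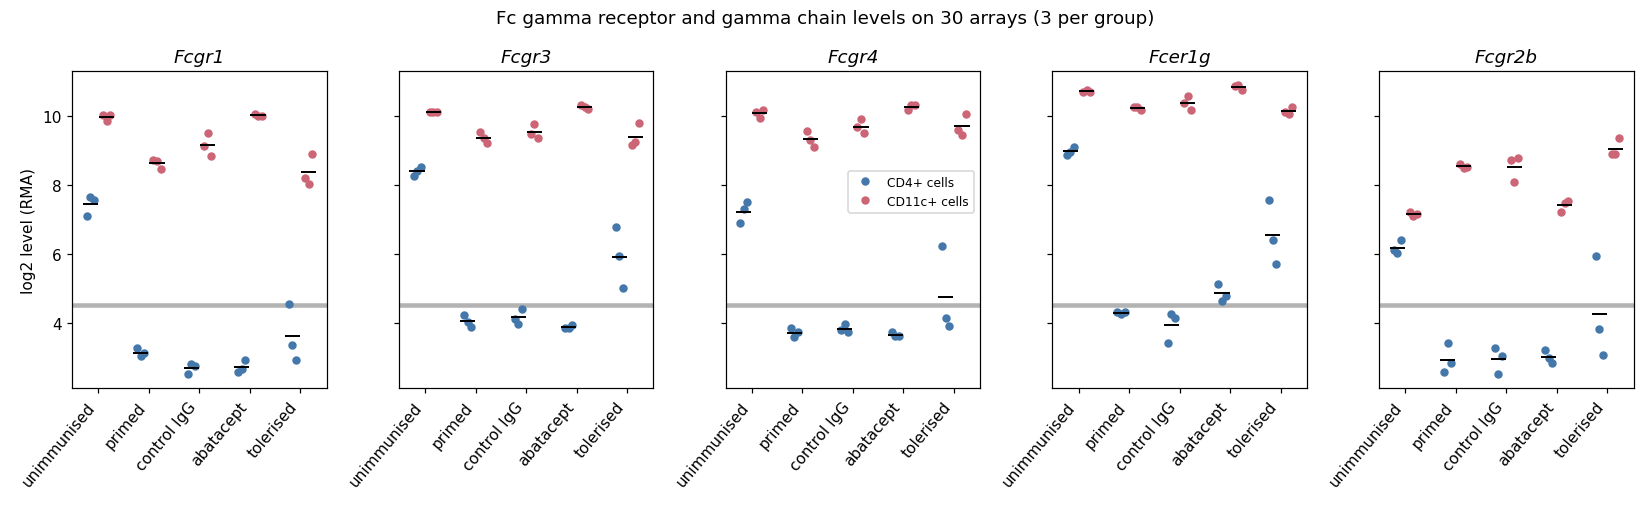
Log2 level of each member on every array (points; 3 per group) with the group mean (black line), for CD4+ and CD11c+ cells; the grey band spans the array medians. In CD11c+ cells Fcgr1, Fcgr3, Fcgr4 and Fcer1g are high in the unimmunised and abatacept groups and Fcgr2b is low there, while in CD4+ cells all 5 genes lie near or below the band in the primed and control IgG groups.

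Primed mice were set against unimmunised mice to compare the receptors of their CD11c+ cells. Fcgr1 was 2.52-fold lower in primed mice (log2 difference -1.34, SE 0.19, limma adjusted p = 0.00019). Fcgr3 and Fcgr4 were each 1.68-fold lower (adjusted p = 0.0016 and 0.0021), and Fcer1g was 1.39-fold lower (adjusted p = 0.0015). Fcgr2b was 2.61-fold higher (log2 difference 1.38, SE 0.17, adjusted p = 6.4e-05). All 5 members were therefore called, 4 lower and 1 higher, where 38.6% of the 10203 genes tested were called. Eif2s3y was high on every primed array and low on every unimmunised array, so priming and whatever came with that difference cannot be told apart. With the Eif2s3y level as a covariate 0 of the 5 were called, with Fcgr3, Fcgr4 and Fcer1g on the other side of 0 (0.09, 0.06 and 0.13). That fit called 0 of all 10203 genes too. Its Eif2s3y slope rests on the control IgG arrays. The arrays of all 5 members did not overlap between the groups, as was so for 51.2% of genes. Mice fed OVA showed the same directions against unimmunised mice: Fcgr1 was 3.02-fold lower, Fcgr3 1.64-fold lower, Fcer1g 1.48-fold lower and Fcgr2b 3.70-fold higher (adjusted p = 2.6e-05, 0.0014, 0.00028 and 4.1e-06). Fcgr4 differed by -0.37 (95% confidence interval -0.71 to -0.04, adjusted p = 0.064) and was not called, but without tolerised replicate 3 it differed by -0.55 (adjusted p = 0.0084). In this comparison 48.6% of genes were called. The tolerised and unimmunised groups both read low for Eif2s3y. In a bulk sample fewer cells of a type that expresses a receptor and less RNA per cell cannot be told apart.

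Between tolerised and primed CD11c+ cells limma called 0 of the 5 members, with 2 at an unadjusted p under 0.05, against 2.84% of all genes called. The difference was largest for Fcgr2b, at 0.51 (95% confidence interval 0.14 to 0.87, adjusted p = 0.14). With array weights in limma Fcgr2b was called, at 0.6 (adjusted p = 0.044). Primed arrays were high and tolerised arrays low in Eif2s3y, so the treatment cannot be told apart from that difference.

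Control IgG was set against priming alone, a comparison in which the stated treatment differed only by an antibody with an Fc part. The arrays differed in other ways too. Control IgG replicate 2 had the least Eif2s3y of its group, and replicates 2 and 3 were high in Amy1, as no primed array was. The antibody cannot be told apart from these differences. Limma called 0 of the 5 members, with 2 at an unadjusted p under 0.05, against 2 genes or 0.0196% of all genes called. The log2 differences were 0.53 for Fcgr1 (95% confidence interval 0.11 to 0.95, adjusted p = 0.37), 0.18 for Fcgr3 (-0.14 to 0.50), 0.37 for Fcgr4 (0.03 to 0.71), 0.14 for Fcer1g (-0.06 to 0.35) and -0.02 for Fcgr2b (-0.38 to 0.35). The sign for Fcgr2b turned under several alternatives. With 1 array left out the difference fell as low as 0.36 for Fcgr1, 0.06 for Fcgr3 and 0.04 for Fcer1g. The 4 activating genes thus had estimates above 0 that did not pass the threshold, and the intervals leave room for a rise of Fcgr1 as large as 0.95.

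Abatacept was set against control IgG, the comparison in which both groups were primed and both received a protein with an Fc part. Eif2s3y was higher on each control IgG array than in the abatacept group. The treatment and whatever came with that difference therefore cannot be told apart. Fcgr1 was 1.82-fold higher under abatacept (log2 difference 0.86, SE 0.19, adjusted p = 0.011). Fcgr3 was 1.64-fold higher (0.71, SE 0.15, adjusted p = 0.0076), Fcgr4 1.49-fold higher (0.57, SE 0.16, adjusted p = 0.026) and Fcer1g 1.37-fold higher (0.45, SE 0.09, adjusted p = 0.0076). Fcgr2b was 2.18-fold lower (-1.12, SE 0.17, adjusted p = 0.0019). All 5 members were called where 15.3% of genes were (1560 genes, but 524 without control IgG replicate 3), and no arrays overlapped, as for 36.9% of genes. The calls of Fcgr3, Fcer1g and Fcgr2b held with any 1 array left out, but the call of Fcgr4 was lost without either of control IgG replicates 1 and 3 or any of the 3 abatacept arrays (adjusted p = 0.056 to 0.13), and that of Fcgr1 without control IgG replicate 3 (0.71, adjusted p = 0.063). With the 5 CD11c+ arrays high in Amy1 left out, Fcgr4 kept its difference of 0.57 but not its call (adjusted p = 0.11).

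Against priming alone the differences under abatacept were 1.39 for Fcgr1, 0.89 for Fcgr3, 0.95 for Fcgr4, 0.60 for Fcer1g and -1.14 for Fcgr2b, or 2.63-fold, 1.85-fold, 1.93-fold and 1.51-fold higher and 2.20-fold lower. All 5 were called (adjusted p = 0.0004 to 0.00096), with 25.6% of genes called, and remained called without any 1 array. Eif2s3y was high on every primed array and low on every abatacept array, so the treatment and whatever came with that difference cannot be told apart here. With the Eif2s3y level as a covariate, whose slope rests on the control IgG arrays, 0 of the 5 members were called between abatacept and control IgG, between abatacept and primed and between primed and unimmunised mice. The same fit also called 0 genes of 10203 in each of these.

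A pair of comparisons among the groups low in Eif2s3y was added after the data had been seen. Against tolerised mice, abatacept-treated mice had 3.14-fold more Fcgr1 (1.65, SE 0.19, adjusted p = 3.7e-05), 1.81-fold more Fcgr3, 1.48-fold more Fcgr4, 1.61-fold more Fcer1g and 3.12-fold less Fcgr2b (-1.64, SE 0.17, adjusted p = 1.8e-05). All 5 were called, with 37.5% of genes called, although Fcgr4 lost its call without tolerised replicate 2 (0.44, adjusted p = 0.053). Against unimmunised mice limma called 0 of the 5, with 0 at an unadjusted p under 0.05 and 2.34% of genes called. The differences were 0.06 for Fcgr1 (95% confidence interval -0.36 to 0.48), 0.14 for Fcgr3 (-0.18 to 0.46), 0.19 for Fcgr4 (-0.15 to 0.53), 0.12 for Fcer1g (-0.09 to 0.32) and 0.25 for Fcgr2b (-0.12 to 0.61). The arrays of both groups did not overlap for Fcgr3 and Fcgr4, which were higher on each abatacept array, as was so in either direction for 22% of genes. The comparisons of abatacept with each of the other groups share the abatacept arrays.

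**Figure D2:**
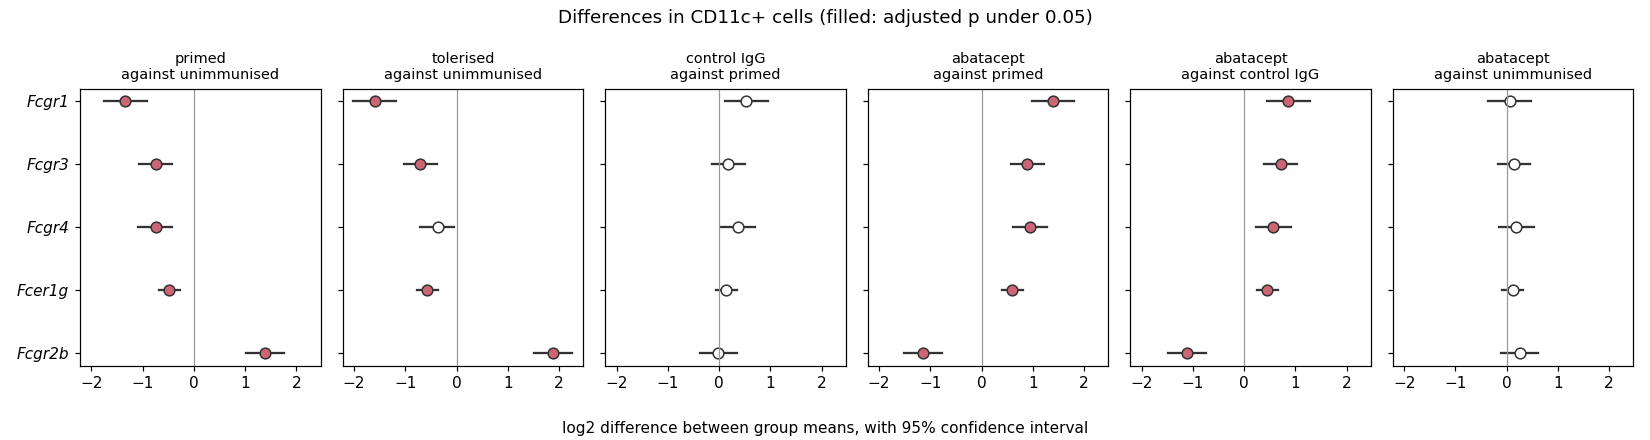
Log2 differences between group means in CD11c+ cells with 95% confidence intervals, one panel per comparison; filled points passed an adjusted p of 0.05. Fcgr2b lies on the other side of 0 from the 4 activating genes in both comparisons with unimmunised mice (primed 1.38, tolerised 1.89) and under abatacept (-1.14 and -1.12), and no point is filled for control IgG against primed.

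The 4 other probe sets of these genes, 1 of Fcgr1 and 3 of Fcgr2b, were fitted among 24137 probe sets. Under abatacept against control IgG the second Fcgr1 probe set was higher by 1.01 (adjusted p = 0.0031). The 3 others of Fcgr2b were lower by -1.14, -1.58 and -1.01 (adjusted p = 0.0028, 0.00098 and 0.008). In primed against unimmunised mice they gave -1.19 for Fcgr1 and 1.23, 1.34 and 1.37 for Fcgr2b. The second Fcgr1 probe set was dim, between 3.73 and 5.47 in CD11c+ cells, so that some arrays lay below the array median. Probe sets of 1 gene share its transcripts and are not independent samples.

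**Figure D3:**
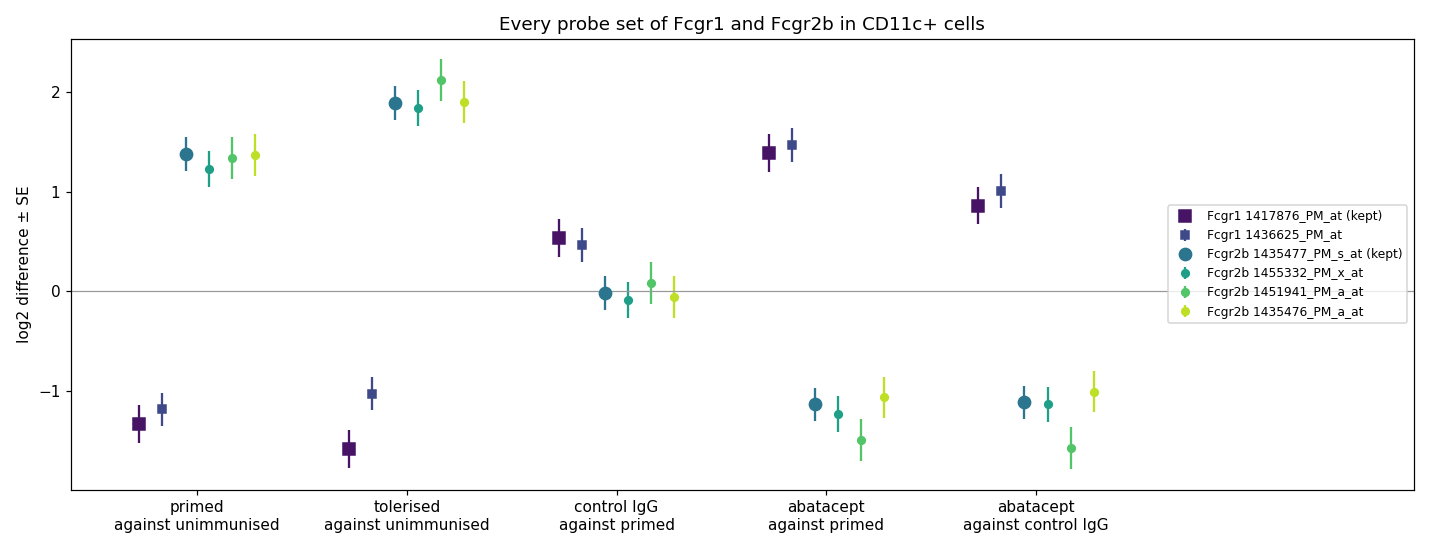
Log2 difference ± SE for every probe set of Fcgr1 (squares) and Fcgr2b (circles) in 5 comparisons of CD11c+ cells; large symbols are the probe sets kept. All 4 Fcgr2b probe sets lie above 0 in the comparisons with unimmunised mice and below -1 under abatacept, and both Fcgr1 probe sets lie on the opposite side.

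By group mean in CD11c+ cells, the macrophage, B cell and erythroid lists were highest in unimmunised and abatacept-treated mice, as the activating genes were. The dendritic cell, neutrophil, T cell, natural killer cell, and mast cell and basophil lists were lowest in those groups. The pattern was thus not particular to macrophages, dendritic cells and neutrophils. In CD11c+ cells the mean log2 level of 8 red pulp macrophage markers (such as Spic, C1qa and Vcam1) ranged from 10.87 to 10.96 in unimmunised, 9.90 to 10.15 in primed, 10.03 to 10.58 in control IgG, 10.84 to 10.93 in abatacept and 9.02 to 9.85 in tolerised arrays. Against control IgG, 15.3% of all genes were called under abatacept. Of the red pulp macrophage markers 3 of 8 were higher and 0 lower, among them Spic by 0.86 (adjusted p = 0.0089). Of 9 monocyte and macrophage markers tested 4 were higher and 1 lower, including Cd14, higher by 1.06 (adjusted p = 0.0015). Dendritic cell markers went the other way, with 0 of 8 higher and 6 lower, and Itgax, the gene of the sorting marker, was lower by -0.37 (adjusted p = 0.0069). Against priming alone 7 of 8 red pulp macrophage markers were higher, 7 of 8 dendritic cell markers were lower and 8 of 8 neutrophil markers were lower. In that comparison 25.6% of all genes were called. The mean of 9 neutrophil markers ran from 7.13 to 7.71 under abatacept and from 7.39 to 8.08 under control IgG, so those arrays overlapped. On control IgG replicate 2 the red pulp macrophage mean was the highest of its group, at 10.58, and the dendritic cell mean the lowest, at 8.55. The part of these shifts in the receptor levels was not tested. None of the 8 red pulp macrophage markers lay below the array median on all arrays of a CD11c+ group. Of the 5 B cell markers in the table, 2 (Cd79b and Blnk) lay above it in every CD11c+ group and Pax5 lay below it in every one. The B cell list means were 5.41 in unimmunised, 5.42 in abatacept, 5.16 in control IgG, 5.05 in primed and 4.83 in tolerised mice. Those of the T cell list were 5.90, 5.96, 6.49, 6.56 and 6.86 in the same order.

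**Figure D4:**
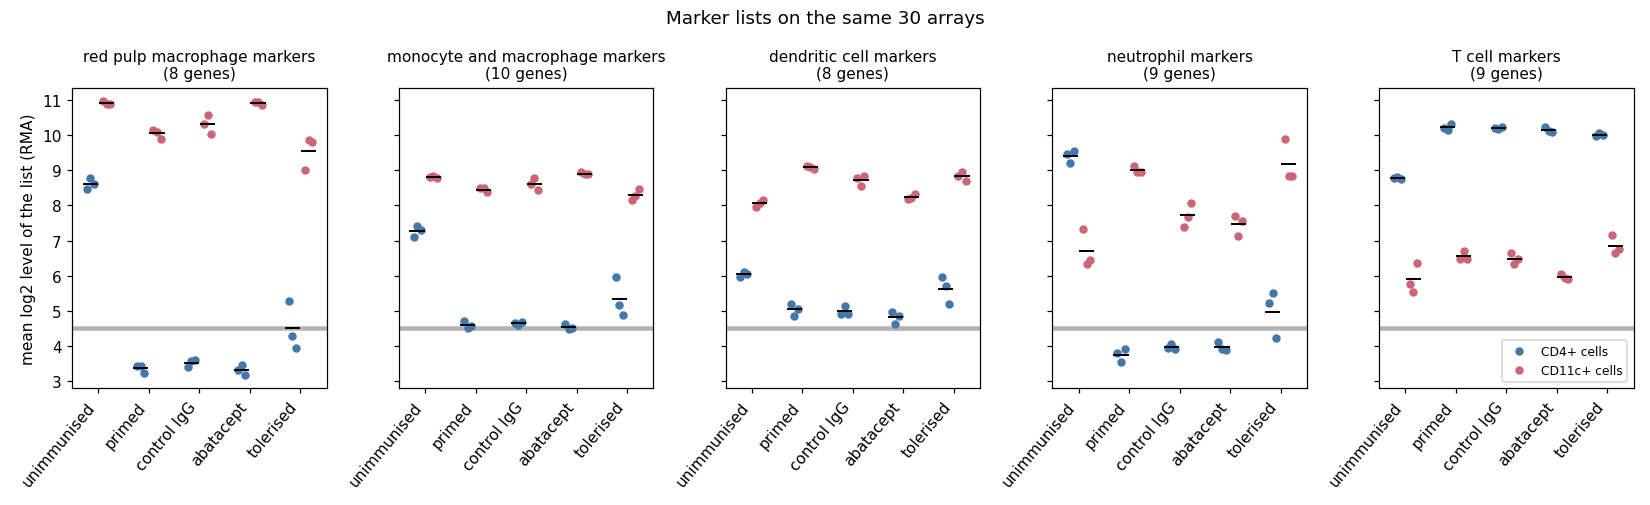
Mean log2 level of 5 marker lists on every array (points) with the group mean (line) for CD4+ and CD11c+ cells; the grey band spans the array medians. By group mean in CD11c+ cells the macrophage lists are highest in the unimmunised and abatacept groups, and the dendritic cell, neutrophil and T cell lists are lowest there. In CD4+ cells the macrophage and neutrophil lists are high in the unimmunised group.

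In CD4+ cells the receptors, by the probe set kept for each, were well above the array median in unimmunised mice, lay below it in the 3 primed groups, apart from Fcer1g under abatacept, and were uneven in tolerised mice. Fcer1g read 8.88, 8.96 and 9.10 in unimmunised, 4.32, 4.26 and 4.31 in primed, 3.41, 4.26 and 4.15 in control IgG, 5.14, 4.65 and 4.80 in abatacept and 7.56, 6.41 and 5.70 in tolerised mice. The unimmunised arrays stood above all others, and the abatacept arrays were the only ones of the 3 primed groups above the array median. Fcgr3 read 8.27, 8.39 and 8.53 in unimmunised and 6.78, 5.95 and 5.03 in tolerised mice, and between 3.86 and 4.41 in the 3 primed groups. Fcgr1 averaged 7.44 ± 0.30, Fcgr4 7.23 ± 0.31 and Fcgr2b 6.18 ± 0.20 in unimmunised mice (SD, n = 3), and each of the 3 averaged below the array median in the primed, control IgG and abatacept groups. Other probe sets did not all share this: another of Fcgr2b lay above the median on the 3 control IgG arrays (4.53 to 4.86), and the second of Fcgr1 lay below it on every CD4+ array, with a mean of 3.61 in unimmunised mice. Tolerised replicate 1 had the highest value of its group for every member, such as 6.25 for Fcgr4, where the other two arrays read 4.14 and 3.92.

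Against unimmunised mice all 5 members were lower in primed CD4+ cells, from -3.24 for Fcgr2b to -4.69 for Fcer1g (adjusted p = 0.00017 to 7.0e-08), with 47.4% of genes called. All 5 were also lower in tolerised CD4+ cells, from -1.91 for Fcgr2b (adjusted p = 0.0078) to -3.83 for Fcgr1 (adjusted p = 2.3e-07), with 49.5% of genes called. Where the lower group lay below the array median these differences are not exact, and in a fit on only the arrays compared the call of Fcgr2b in tolerised mice was lost (adjusted p = 0.051). The kept probe sets of Fcgr1, Fcgr2b and Fcgr4 lay above the array median only on the 3 unimmunised and 1 of the tolerised arrays. These genes thus entered the test through the unimmunised group, so their lower levels elsewhere were partly set by the filter. The same unimmunised arrays were high in markers of other cells: the mean of 9 neutrophil markers ran from 9.21 to 9.54 against 3.55 to 3.91 in primed arrays, that of 8 red pulp macrophage markers from 8.48 to 8.77 against 3.24 to 3.45, and that of 9 T cell markers from 8.74 to 8.81 against 10.14 to 10.30. In primed arrays 7 of the 8 red pulp macrophage markers lay below the array median on all 3 arrays. The part of such cells in the receptor levels was not tested. Eif2s3y also averaged 8.62 in primed and 8.89 in tolerised CD4+ arrays and 2.51 to 2.60 in the other 3 groups, and its part was not tested either.

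Between tolerised and primed CD4+ cells, Fcgr3 was higher by 1.87 (SE 0.30, adjusted p = 0.0012) and Fcer1g by 2.26 (SE 0.35, adjusted p = 0.00088), both against a primed mean below the array median. The other members gave 0.47 for Fcgr1, 1.33 for Fcgr2b and 1.04 for Fcgr4 (adjusted p = 0.34, 0.11 and 0.13), while 14.7% of genes were called. Without tolerised replicate 3 the calls rose to 4 of 5, with Fcgr2b at 1.93 and Fcgr4 at 1.47. Without tolerised replicate 1, Fcgr1 came to 0.00, Fcgr2b to 0.50 and Fcgr4 to 0.30, while Fcgr3 at 1.44 and Fcer1g at 1.76 were still called (limma adjusted p = 0.0014 and 0.00082). Tolerised replicate 1, high in every member, also had the highest mean of the monocyte and macrophage list of its group, 5.96 against 5.18 and 4.90.

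Neither protein with an Fc part gave a called member in CD4+ cells. The kept probe sets of Fcgr1, Fcgr2b, Fcgr3 and Fcgr4 lay below the array median on every primed, control IgG and abatacept array. A change may not be measurable there. Eif2s3y was high in primed CD4+ arrays and low in the control IgG and abatacept groups. Against primed mice the treatment therefore cannot be told apart from that difference. Limma called 0 of 5 for control IgG against primed (0 at an unadjusted p under 0.05, 0.0872% of genes called), 0 of 5 for abatacept against primed (0 at an unadjusted p under 0.05, 22.1% of genes called) and 0 of 5 for abatacept against control IgG (1 at an unadjusted p under 0.05, 16.7% of genes called). The 1 was Fcer1g, with a difference of 0.92 between abatacept and control IgG (95% confidence interval 0.17 to 1.68, adjusted p = 0.09). In a fit on only the arrays of the groups compared, Fcer1g at 0.57 (adjusted p = 0.028) and Fcgr1 at -0.41 (adjusted p = 0.048) passed the threshold between abatacept and primed. Tyrobp, another ITAM adaptor and also a marker of natural killer cells, was higher by 2.80 under abatacept than under control IgG (SE 0.41, adjusted p = 0.00048), and the mean of 7 natural killer cell markers, of which Tyrobp is 1, ran from 6.55 to 6.84 against 5.63 to 5.93.

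CD11c+ cells had more of every member than CD4+ cells in each of the 5 groups (5 of 5 called higher each time). Outside the unimmunised group the CD4+ cells came from nodes and the CD11c+ cells from pooled spleen and nodes, so cell type cannot be told apart from tissue there. Of the 10838 genes tested, 27.8% were called higher in unimmunised, 29.1% in primed, 30.6% in control IgG, 35.6% in abatacept and 31.9% in tolerised mice, and 66.4%, 63.2%, 65.7%, 68.7% and 60.1% in either direction. In unimmunised mice the log2 difference was 2.52 for Fcgr1, 1.72 for Fcgr3, 2.85 for Fcgr4, 1.73 for Fcer1g and 0.98 for Fcgr2b (limma adjusted p for the last 0.038). In the other groups it lay between 3.48 for Fcgr3 in tolerised and 7.29 for Fcgr1 in abatacept-treated mice, where the CD4+ level of Fcgr1 was below the array median, so that the difference is not exact. The call of Fcgr2b in unimmunised mice was lost without any 1 array but CD4+ replicate 3 (adjusted p = 0.064 to 0.096).

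To ask whether abatacept acted differently on both kinds of cell, an interaction was fitted to the 30 arrays. For abatacept against control IgG limma called 0 of 5 members (2 at an unadjusted p under 0.05), with 14.3% of genes called. The effect in CD11c+ minus that in CD4+ cells was 0.83 for Fcgr1, 0.99 for Fcgr3, 0.75 for Fcgr4, -0.47 for Fcer1g and -1.17 for Fcgr2b (adjusted p = 0.15, 0.062, 0.33, 0.45 and 0.19). In a fit on only the arrays of these groups 4 of 5 were called. In both CD4+ groups the kept probe sets of Fcgr1, Fcgr2b, Fcgr3 and Fcgr4 lay below the array median on all arrays, where a change may not be measurable, so these values do not show whether the response differed between the cell types. The control IgG arrays were also high in Eif2s3y in CD11c+ cells and low in CD4+ cells (mean 2.51), and the cells came from different tissues, so cell type cannot be told apart from these. For control IgG against primed 0 of 5 were called (1 at an unadjusted p under 0.05, Fcgr1 at 0.98), with 0.148% of genes called. For 4 contrasts added after the data had been seen, limma called 2 of 5 members for abatacept against primed (Fcgr1 and Fcgr3, with 24.1% of genes called), 5 for primed against unimmunised (41.9% of genes), 5 for tolerised against unimmunised (49% of genes) and 2 for tolerised against primed (Fcgr3 and Fcer1g, 11.2% of genes).

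The wider pathway was followed in gene lists. Of the other ITIM receptors, 7 were tested in CD11c+ cells, and 4 were higher and 0 lower under abatacept than under control IgG (median 0.35, against -0.02 for all genes, of which 15.3% were called). They included Pirb (0.45, adjusted p = 0.0034), Clec4a2 (0.48, adjusted p = 0.0039) and Sirpa (0.35, adjusted p = 0.016), a receptor for CD47. In primed against unimmunised mice 6 of the 7 were lower and 0 higher, where 38.6% of all genes were called. The called ones had the direction of Fcgr1 in both comparisons, and 3 of 7 and 1 of 7 did not pass. Of 5 other Fc receptors tested 1 was higher and 2 lower under abatacept than under control IgG. These were Fcrl1 (0.76, adjusted p = 0.033), Fcrla (-0.72, adjusted p = 0.0076) and Fcrls (-1.11, adjusted p = 0.017). Fcgrt encodes FcRn, the receptor that salvages IgG and Fc fusion proteins from degradation. In CD11c+ cells it read 11.10, 10.68 and 10.78 in unimmunised, 9.90, 10.00 and 9.70 in primed, 10.12, 10.32 and 9.73 in control IgG, 10.74, 10.79 and 10.60 in abatacept and 8.81, 9.63 and 9.73 in tolerised mice. The unimmunised and abatacept arrays were again the highest. Fcgrt was lower by -0.99 in primed than in unimmunised mice (adjusted p = 0.0028) and higher by 0.84 under abatacept than in primed mice (adjusted p = 0.011), and by 0.65 than under control IgG (adjusted p = 0.056), which did not pass.

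Other receptors that use the gamma chain did not share 1 direction. Of all genes, 15.3% were called under abatacept against control IgG and 25.6% against primed mice. The counts in the short lists below were not tested against these shares. Of 5 tested, 0 were higher and 1 was lower under abatacept than under control IgG, the mycobacterial glycolipid receptor Clec4e (Mincle) by -1.35 (SE 0.35, adjusted p = 0.02), whose abatacept mean of 3.44 was below the array median. Against primed mice 1 rose, Clec4n (Dectin-2) by 0.70 (adjusted p = 0.00098), and 1 fell, Clec4d by -0.83 (adjusted p = 0.026). Downstream of the ITAM, 2 of 11 signalling genes were higher and 2 lower under abatacept than under control IgG (median -0.04). The adaptor Lcp2 (SLP-76) was higher by 0.41 (adjusted p = 0.015), and the adaptor Lat2 and the kinase Prkcd were each lower by -0.72 (adjusted p = 0.0048 and 0.0037). Of 7 inhibitory phosphatases and Dok adaptors 1 was higher, Dok3 by 0.65 (adjusted p = 0.013), and 0 of the 3 other ITAM adaptors and 0 of the 4 phagocyte oxidase genes tested were called. Of 8 genes induced by interferon-gamma, a cytokine known to raise Fcgr1, 0 were higher and 2 lower: the chemokine gene Cxcl9 by -1.01 (adjusted p = 0.0077) and Ciita, the master regulator of MHC class II, by -0.68 (adjusted p = 0.012). In primed against unimmunised mice both were higher, by 1.93 and 1.55 (adjusted p = 2.7e-05 and 1.4e-05), while Fcgr1 was lower. In that comparison 38.6% of all genes were called. The mean of the 9 genes of this list with a probe set ran from 7.06 to 7.16 in primed and from 6.53 to 6.79 in unimmunised arrays. What interferon-gamma had to do with the level of Fcgr1 was not tested.

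Over the 15 CD11c+ arrays the gene most like Fcer1g was Cd14 (Pearson r = 0.988), followed by Lap3 and Blvrb. Those most like Fcgr1 were Rgl1 (r = 0.983), Blvrb and Fer, and those most like Fcgr2b were Il1rn (r = 0.981), the gene of the interleukin-1 receptor antagonist, Ccl9 and Vwa5a. Fcgr3 was most like Tmem140, Fam43a and Hacd4 (r = 0.962 to 0.966), and Fcgr4 most like Nod1, Tmem14c and Gbp8 (r = 0.926 to 0.954). Fcgr2b correlated with the other 4 members at -0.655 (Fcgr4) to -0.907 (Fcer1g), whereas those 4 correlated with each other at 0.852 to 0.974. Over the 15 CD4+ arrays all 5 members correlated at 0.918 to 0.971. The gene most like each was Ear3 for Fcgr1, Fn1 for Fcgr2b, C5ar1 for Fcgr3, C1qc for Fcgr4 and Cst3 for Fcer1g (r = 0.978 to 0.993). These are descriptions, since the points share their 5 groups, cell mixture and normalization.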

How the data were processed

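RNA of CD4+ T cells and of CD11c+ cells, each over 90% pure per the labels' protocols, was hybridised to Affymetrix mouse expression arrays. The authors deposited log2 values, 1 for each probe set on each array, made with RMA per the submitters' processing notes, in a version not given in the sources used here. RMA equalises the arrays' distributions, so levels are relative. Of 45118 probe sets, 28898 had 1 symbol, 551 several and 15669 none in the platform annotation.

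A gene entered the test if 3 or more arrays held it above their median. Limma 3.58.1 (R 4.3.3; lmFit and eBayes, two-sided) tested 10322 genes in CD4+ cells, 10203 in CD11c+ cells and 10838 over both, with 10, 10 and 20 residual degrees of freedom. Called means an adjusted p (Benjamini-Hochberg, over all genes tested) under 0.05. Of each gene list, at most 3 called genes per comparison are named, those with the smallest adjusted p. The members and lists were chosen with earlier results of these data known. Other settings changed the arrays in the fit, the filter, the normalization, the array weights, the replicate block, the probe set summary or left out 1 array. Covariates for Eif2s3y and salivary genes, leaving out arrays high in Amy1, and further contrasts were added after seeing the data. The procedure was tested on simulated data. The number of arrays limits the precision. Promoters are from RefSeq (GRCm38.p6).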

Additional observations from a re-analysis of the deposited data

Results flagged for a closer look

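Differences between the 2 cell types under the same contrast were tested for 4 further contrasts, chosen after the data had been seen, over all 30 arrays with limma. Each value is the log2 difference in CD11c+ cells minus that in CD4+ cells, and those named passed an adjusted p of 0.05. For primed against unimmunised mice all 5 members differed: Fcgr1 by 2.96, Fcgr2b by 4.62, Fcgr3 by 3.60, Fcgr4 by 2.74 and Fcer1g by 4.21 (adjusted p = 6.9e-05 to 4.6e-09, with 41.9% of genes called). For tolerised against unimmunised mice they differed by 2.23, 3.80, 1.77, 2.08 and 1.86 in the same order (adjusted p = 0.001 to 8.7e-06, with 49% of genes called). None of these sizes is exact where the CD4+ level of 1 group lay below the array median, as for all 5 members in primed mice. Both rest on CD4+ levels that were high in unimmunised mice, where markers of other cells were high too, and their part was not tested. For Fcgr2b the direction itself differed, since it was higher in CD11c+ and lower in CD4+ cells.

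For abatacept against primed mice Fcgr1 differed by 1.81 (SE 0.38, adjusted p = 0.0012) and Fcgr3 by 1.06 (SE 0.35, adjusted p = 0.032), with 24.1% of genes called, and the call of Fcgr3 was lost without any 1 of 7 arrays (adjusted p = 0.05 to 0.075). For tolerised against primed mice Fcgr3 differed by -1.83 (adjusted p = 0.0013) and Fcer1g by -2.35 (adjusted p = 0.00023), with 11.2% of genes called. In primed mice Eif2s3y was high in both cell types, but in tolerised mice it was high in CD4+ and low in CD11c+ cells, and tissues differed too, so cell type cannot be told apart from these differences.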

How the results depend on the processing

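Counts here are of the 5 members called unless said otherwise. A fit on only the arrays compared gave 2 for abatacept against primed in CD4+ cells and 4 for the interaction of abatacept against control IgG. Array weights gave 1 for abatacept against control IgG in CD4+ cells, 1 for tolerised against primed in CD11c+ cells and 3 for that interaction, and the mean of all probe sets gave 2 for it. With 1 array left out the counts ran from 2 to 4 for tolerised against primed in CD4+ cells, from 3 to 5 for abatacept against control IgG in CD11c+ cells and from 0 to 1 for the interaction. The Eif2s3y covariate, added after seeing the data, gave 0 for abatacept against primed, abatacept against control IgG and primed against unimmunised in CD11c+ cells. It turned the sign of called values, to 0.13 for Fcgr2b and -0.02 for Fcer1g (abatacept against primed), to -0.10, -0.01, -0.11 and -0.06 for Fcgr1, Fcgr3, Fcgr4 and Fcer1g (abatacept against control IgG) and to 0.09, 0.06 and 0.13 for Fcgr3, Fcgr4 and Fcer1g (primed against unimmunised). It was not run in CD4+ cells, where Eif2s3y varies too little within groups.

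The other reversals were of values not called. For control IgG against primed, Fcgr2b came to -0.03 in CD4+ cells (quantile normalization) and in CD11c+ cells to 0.08 (weights), 0.18 (Eif2s3y) and 0.19 (Amy1 arrays out), and its interaction to 0.00 (quantile), while that of Fcgr3 came to -0.05 (salivary covariate). For abatacept against control IgG in CD4+ cells Fcgr2b came to -0.01 (probe set mean). For tolerised against primed in CD11c+ cells Fcgr3 came to -0.80 (Eif2s3y), -0.16 (Amy1 arrays out) and 0.00 (salivary covariate), and Fcgr4 to -0.42 (Eif2s3y). With 1 array left out, values ran as follows in CD4+ cells: from -0.17 to 0.24 for Fcgr2b and -0.01 to 0.22 for Fcgr3 (control IgG against primed), from -0.12 to 0.30 for Fcgr2b (abatacept against primed), and from -0.06 to 0.10 for Fcgr1 and -0.16 to 0.21 for Fcgr2b (abatacept against control IgG). In CD11c+ cells they ran from -0.14 to 0.21 for Fcgr2b (control IgG against primed), -0.16 to 0.16 for Fcgr3 (tolerised against primed) and 0.00 to 0.09 for Fcgr1 (abatacept against unimmunised). Interactions ran from -0.26 to 0.20 for Fcgr2b and -0.05 to 0.19 for Fcgr3 (control IgG against primed), -0.08 to 0.17 for Fcer1g (abatacept against primed), and -1.43 to 0.01 for Fcgr2b and -1.09 to 0.08 for Fcgr4 (tolerised against primed). The cause was not tested.

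Over all genes, abatacept against control IgG in CD11c+ cells called 1560, but 2696 with weights, 433 without the Amy1 arrays, 958 with the salivary covariate and 0 with the Eif2s3y covariate. That covariate also took abatacept against primed from 2615 to 0 and primed against unimmunised from 3941 to 0. Control IgG against primed called 2, but 50 in the fit of the groups compared, 150 with weights, 4 with the block and 0 with either covariate. Tolerised against primed called 290, but 110, 532 and 80 with the groups compared, weights and the Amy1 arrays out, and abatacept against unimmunised 239, but 91, 143 and 22 with the groups compared, the salivary covariate and the Amy1 arrays out. In CD4+ cells tolerised against primed called 1514, but 822 in the fit of the groups compared. With 1 array left out the counts ran from 524 to 1826 for abatacept against control IgG, 76 to 404 for tolerised against primed and 54 to 287 for abatacept against unimmunised in CD11c+ cells (lowest without control IgG replicate 3, primed replicate 2 and abatacept replicate 2). In CD4+ cells they ran from 1407 to 2409 for abatacept against primed (2282 with all arrays), 1036 to 1918 for abatacept against control IgG (1722) and 997 to 1580 for tolerised against primed (lowest without primed replicate 1, abatacept replicate 3 and tolerised replicate 1). With the replicate block the count of members was the same in each comparison, such as 5 for abatacept against control IgG in CD11c+ cells. Deviations of arrays with the same number correlated at -0.23 to 0.28, with no comparison in which all 3 exceeded 0.1, so the numbers were not taken to pair arrays.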
